A study of Mus musculus with 35 samples.

Results

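Livers of mice given the smaller silica particle SP30 at 10 mg/kg were compared with livers of mice given the larger particle SP70 at 40 mg/kg. These are 10 of the 35 arrays of the study, the 5 titled for each of those treatments, and all 12678 genes with a usable signal were examined. The study had chosen both doses as toxic ones from earlier tissue and serum findings, so the comparison asks how a liver differs when particles of different size have each reached a harmful dose. All mice were BALB/c and were assigned at random to 7 groups of 5. The mice of the compared groups received SP30 at 10 mg/kg or SP70 at 40 mg/kg by injection into a vein. The control mice, whose values stand beside the comparison, received deionized water. RNA came from the liver's left lateral lobe 6 h after the injection, with 1 array per mouse, and the labels give neither age nor sex. Particle size and dose differ at once between the groups, so their parts in a difference cannot be told apart.

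Particles in the blood are cleared largely by the liver. Kupffer cells, the resident macrophages of the sinusoids, take them up together with the sinusoidal endothelium, and damaged or activated Kupffer cells release signals that bring in neutrophils and monocytes. Interferons then switch on genes of antigen presentation and of defence inside cells, while hepatocytes turn to acute phase proteins and away from metabolism.

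The values are probe set intensities from the MAS5 algorithm on a linear scale, called signals here. The labelled tissue matched its markers: the albumin gene Alb gave signals of 73803 to 80289.5 after SP30 and 61427 to 75033 after SP70, among the brightest of the arrays. Clec4f, a Kupffer cell lectin, was at 3055 to 4136 in control mice, and Stab2, a scavenger receptor of sinusoidal endothelium, was at 1590.3 to 2167 after SP30 and 1401 to 2245 after SP70. Arrays correlated at 0.962 to 0.972 within the SP30 group, at 0.964 to 0.971 within the SP70 group and at 0.95 to 0.969 between them, computed over probe sets within each pair of arrays, whose genes are no replicates. Array medians ran from 154 to 168 and from 153 to 176. Differences are log2 of SP30 minus SP70 with the standard error (SE) of a limma fit and n = 5 mice per group, a positive value being higher after SP30, and a gene is called when its Benjamini-Hochberg adjusted p is under 0.05. Folds are ratios of geometric mean signals, in which signals below 165, the median of all values, were raised to it. Where that happened in the lower group the fold is given as at least, and the log2 value rests on low signals and is no bound. In whole tissue, fewer cells of a type and less RNA per cell cannot be told apart.

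Of the 12678 genes, 726 (5.73%) were called, 468 (3.69%) higher after SP30 and 258 (2.04%) higher after SP70. At least 2-fold differences on the log2 scale were called for 149 genes (1.18%), 108 higher after SP30 and 41 higher after SP70. All genes together had a median difference of -0.0056. The signals of the groups did not overlap for 657 genes (5.18%), 404 (3.19%) higher after SP30 and 253 (2%) higher after SP70. With each array centred on its median the split became 629 higher after SP30 and 140 higher after SP70, and the median of all genes 0.062. The total fell to 429 without SP70 mouse 3 and to 469 without SP30 mouse 4. Against control, which both groups share, 6243 genes (49.2%) were called after SP30 and 5614 (44.3%) after SP70.

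**Figure D1:**
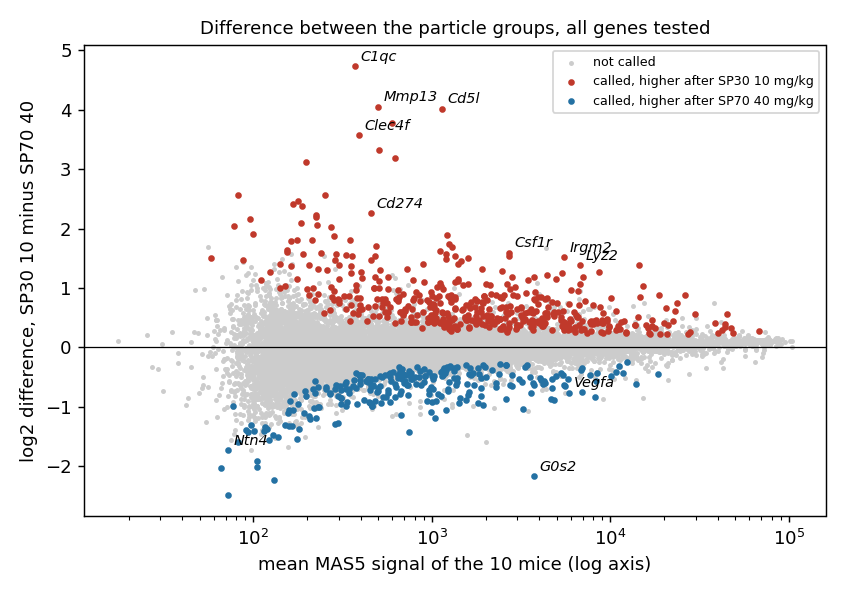
Log2 difference between SP30 at 10 mg/kg and SP70 at 40 mg/kg (vertical axis) against the mean signal of the 10 mice (horizontal, log axis) for each of the 12678 genes tested; red and blue points are the 468 genes called higher after SP30 and the 258 called higher after SP70. The points farthest above 0 are genes of macrophages and of C1q, and G0s2 is the lowest of the bright genes.

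Genes that mark Kupffer cells held the widest differences. Of 28 measured genes of Kupffer cell identity, 15 were higher after SP30 and 0 after SP70, beside 3.69% and 2.04% of all genes tested. The median difference of the 28 was 1.10. In 13 of the 28 every mouse given SP30 lay above every mouse given SP70, beside 3.19% of all genes. The summed signal of the 28 ran from 44929 to 56128 after SP30, from 29270 to 36834 after SP70 and from 67364 to 87726 in control mice, so the groups did not overlap. Against control, 17 of the 28 were lower and 5 higher after SP30 (31.2% and 18% of all genes tested), and 20 were lower and 3 higher after SP70 (28.8% and 15.5%).

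C1qc encodes a chain of C1q, the recognition protein of the classical complement pathway, which liver macrophages make. Its signals were 519, 838, 476, 499.7 and 1306 after SP30 and 11.03, 11.9, 11.01, 18.9 and 13.9 after SP70, against 1978 to 2579.5 in control mice. All 5 mice given SP70 lay far below the lowest mouse given SP30, which in turn lay below every control mouse. The difference was 4.73 ± 0.35, adjusted p = 1.89e-11, at least 4.06-fold higher after SP30. The other chains differed in the same direction, with C1qa at 769 to 1996 against 12.3 to 239 (3.78 ± 0.41, at least 5.76-fold) and C1qb at 776 to 1977 against 17.3 to 217 (3.18 ± 0.48, at least 5.87-fold). For each chain the groups did not overlap.

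Cd5l is a secreted protein of tissue macrophages that keeps them alive and binds lipids. It gave 1406, 2292, 1916, 2212 and 2884 after SP30 and 78.4, 191, 186, 57.9 and 128 after SP70, and the control mice lay at 2182 to 3279. The mice given SP30 overlapped the control range, whereas all mice given SP70 lay far below both. It was at least 12-fold higher after SP30 (4.02 ± 0.29, adjusted p = 1.06e-11). Against control it stood at -0.41 after SP30, which was not called, and at -4.43 after SP70, which was.

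Several surface receptors of Kupffer cells were also higher after SP30 than after SP70. Clec4f, the lectin found on these cells alone in the mouse liver, was at 429, 703, 596, 603 and 1274 after SP30 and at 65.3, 57.5, 158, 8.46 and 20.7 after SP70 (at least 4.08-fold, 3.57 ± 0.47, adjusted p = 5.94e-06). Vsig4, a complement receptor that captures particles and bacteria, was at 565, 965, 819, 663 and 1524 against 166, 172, 15.2, 171 and 16.6 (at least 5.08-fold, 3.32 ± 0.47, adjusted p = 1.21e-05). Neither gene overlapped between the groups, and both lay below every control mouse in both groups (3055 to 4136 and 3751 to 7056). Cd163, the receptor for haemoglobin bound to haptoglobin, differed by 2.57 ± 0.40, but only 1 mouse given SP30 (60.2 to 286) lay above 165 and none given SP70 did (2.37 to 26.8), against 1073 to 1776 in control mice. Timd4, a receptor for dying cells (2.04 ± 0.49), was likewise faint, and the call for it ended in a fit of the 10 arrays alone (adjusted p = 0.134). So did that for Marco, a scavenger receptor (2.23 ± 0.55, adjusted p = 0.0784 there). Marco was at 54.1 to 680 after SP30 and 10.1 to 161 after SP70, with overlap. Its control mice lay at 91 to 187.

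Csf1r, the receptor of the growth factor on which macrophages depend, was bright in every mouse. Its signals were 2943, 4007, 3296, 4638 and 5462 after SP30 and 1151, 1642, 1219.6, 1443 and 1146 after SP70, and 8610.2 to 11915 in control mice. The 3 groups formed separate steps, and the difference was 3.04-fold (1.59 ± 0.13, adjusted p = 1.45e-10). Adgre1, which encodes the F4/80 antigen, was 2.33-fold higher (1.19 ± 0.17), the complement activator properdin (Cfp) at least 2.59-fold (1.53 ± 0.27) and ficolin A (Fcna) 2.04-fold (1.01 ± 0.18). Spic, a transcription factor of macrophages that recycle iron, was at 513, 506, 391, 595 and 740.4 against 80.5, 184, 162, 194 and 133, and its control mice at 240.3 to 452. Spic was thus above control after SP30 (0.79) and below it after SP70 (-1.02), and the difference between the groups was called (1.81 ± 0.25, adjusted p = 1.02e-05).

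The difference did not extend to every gene of the list. Mertk, a receptor for the uptake of dying cells, was at 566 to 878 after SP30 and 551 to 851 after SP70 (0.016 ± 0.12, adjusted p = 0.966), both below the control range of 1213 to 1601. Folr2, a folate receptor of resident macrophages, was not called (1.41 ± 0.45, adjusted p = 0.0549), with 1 mouse given SP30 far below the others, and was called without that mouse, SP30 mouse 4 (1.92, adjusted p = 0.00276). With each mouse left out in turn, 15 to 17 of the 28 genes were called, all higher after SP30.

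**Figure D2:**
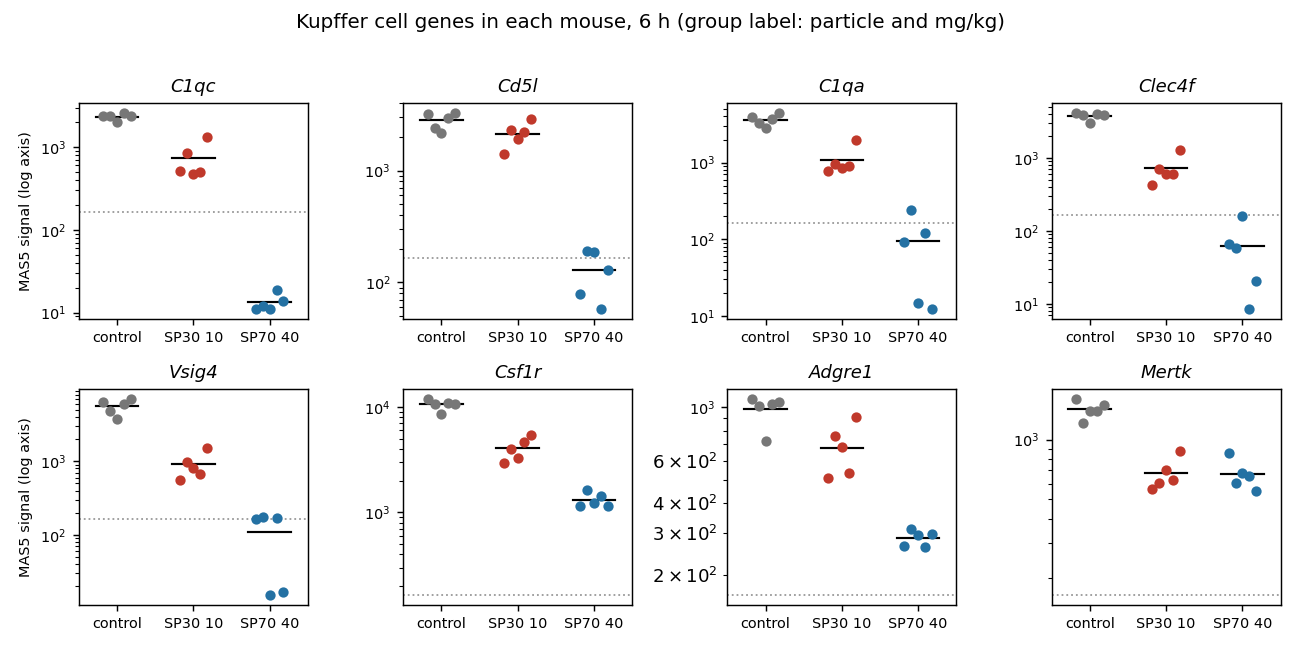
Signals (log axis, a separate scale in each panel) of 8 genes of Kupffer cells in each of 5 control mice (grey), 5 mice given SP30 at 10 mg/kg (red) and 5 given SP70 at 40 mg/kg (blue); the bar is the group mean and the dotted line the filter of 165. In 7 panels every red point lies above every blue one, and in the Mertk panel the groups overlap.

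Genes shared by macrophages of all kinds differed in the same direction, but in part from another starting point. Of 22 such genes, among them lysosomal enzymes, 14 were higher after SP30 and 0 after SP70, beside 3.69% and 2.04% of all genes. The median of the 22 was 0.78. Against control 11 of them were higher and 2 lower after SP30, and 5 were higher and 11 lower after SP70, beside 18% and 31.2% of all genes after SP30 and 15.5% and 28.8% after SP70. Lyz2, the lysozyme of macrophages and neutrophils, was at 7667, 9095, 7504, 13883 and 10679 after SP30 and 2929.7, 5533, 2597, 4275 and 3543 after SP70, with control mice at 3006 to 4131. All mice given SP30 lay above every mouse of these 2 groups, and the SP70 group spread around the control range (2.61-fold, 1.38 ± 0.17, adjusted p = 2.05e-06). After SP70 at 10 mg/kg, outside the comparison, the mean ± SD of Lyz2 was 13908 ± 2827. Its near-identical copy Lyz1 gave 1.39 ± 0.17, and the probe sets of the pair may not tell them apart.

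Cybb, the catalytic subunit of the phagocyte oxidase, was at 1494, 1906, 1487, 1816 and 2304 after SP30 and 682, 651, 339, 817 and 583 after SP70 (3.01-fold, 1.57 ± 0.17, adjusted p = 1.83e-07). The control mice at 693 to 979 lay below every mouse given SP30 and overlapped the SP70 group, with Cybb called above them after SP30 (1.14) and below them after SP70 (-0.43). Aif1, an actin-binding protein of macrophages, was at least 1.76-fold higher (2.46 ± 0.38), cathepsin S (Ctss), which processes antigens, 2.11-fold (1.07 ± 0.15) and the pore-forming protein Mpeg1 1.77-fold (0.83 ± 0.16). Unlike Lyz2 and Cybb, Ctss was called below control after SP30 (-0.51) and after SP70 (-1.58). Aif1 was called below control after SP70 (-3.29) and not after SP30 (-0.82). Cd68, a lysosomal membrane protein, was at 572 to 898 against 295 to 566 (0.81 ± 0.17).

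Receptors through which macrophages take up particles made a smaller share. The median over 18 scavenger receptors was 0.36, and 4 were higher after SP30, beside 3.69% of all genes. They were Msr1, which binds modified lipoproteins and silica (2.18-fold, 1.11 ± 0.15), the glucan receptor Clec7a (2.69-fold, 1.41 ± 0.20), the lectin Clec4e (2.71-fold, 1.41 ± 0.36) and Marco. Msr1 was at 1568, 2044, 1534, 1850 and 2643 after SP30 and 923, 1001, 543, 952 and 1018 after SP70, and the control mice at 1445 to 1865 overlapped the SP30 range and lay above every mouse given SP70. Stab2 and the other scavenger receptors of endothelium were not called (Stab2 -0.044 ± 0.13). Clec4e was not called without SP70 mouse 3 (adjusted p = 0.0618).

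Markers of cells that enter the liver were measured beside these genes. Of 21 genes of recruited monocytes, 6 were higher after SP30 and 0 after SP70 (median 0.35), beside 3.69% and 2.04% of all genes. Lyz2, among the 6, is also in the list of genes shared by macrophages. Their summed signal ran from 206016 to 230493 after SP30, 182308 to 219905 after SP70 and 181994 to 190626 in control mice. Treml4, a receptor of patrolling monocytes and splenic macrophages, was at 358, 359, 350.3, 552 and 592 against 51.5, 94.4, 102, 139 and 118 (at least 2.61-fold, 2.02 ± 0.30, adjusted p = 2.38e-05), with control mice at 274 to 638. Ms4a4c was 2.05-fold higher (1.00 ± 0.18) and the hyaluronan receptor Cd44 1.79-fold (0.83 ± 0.18). Ccr2, the chemokine receptor that defines inflammatory monocytes, was not called (0.066 ± 0.20, adjusted p = 0.908), and neither was the proteoglycan gene Vcan (0.40 ± 0.28, adjusted p = 0.487).

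Of 24 genes listed for neutrophils, 4 were higher after SP30 and 1, G0s2, after SP70 (median 0.38), beside 3.69% and 2.04% of all genes. Among the 4, Clec4e is also in the scavenger receptor list and Fpr2 in that of danger and lectin receptors. The summed signal of the 24 ran from 142349 to 166113 after SP30, 112425 to 160019 after SP70 and 13735 to 24438 in control mice, so the particle groups overlapped. G0s2 is also in the list of fatty acid synthesis and lipid droplets, and alone gave 4622 to 15645 in control mice. The calprotectin genes S100a8 (0.36 ± 0.23, adjusted p = 0.437) and S100a9 (0.39 ± 0.25, adjusted p = 0.425) were not called. The formyl peptide receptor Fpr2 was 2.5-fold higher after SP30 (1.31 ± 0.19) and Wfdc17, a small secreted protein of activated macrophages and neutrophils, 2.91-fold (1.53 ± 0.27). Against control, Fpr2 was called higher after SP30 (2.83) and after SP70 (1.52). Wfdc17 was not called against control after SP30 (0.52) and was called lower after SP70 (-1.01). Without SP70 mouse 3, 2 of the neutrophil genes in place of 4 were called higher after SP30. The part of entering cells in the differences of macrophage genes was not tested.

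Genes known to respond to interferon gamma were in part higher after SP30 as well, and what drove them was not tested. Of 29 genes for interferon gamma GTPases and antigen presentation, 14 were higher after SP30 and 0 after SP70, beside 3.69% and 2.04% of all. The median of the 29 was 0.45. Irgm2, a GTPase that acts on membranes around microbes, was at 6845, 8201, 7385, 7900.1 and 10343 after SP30 and 3471, 2227, 2447, 3519 and 2569 after SP70 (2.88-fold, 1.52 ± 0.17, adjusted p = 2.72e-07). All mice given SP30 lay above the control range of 3179 to 4339, which the SP70 group overlapped. Its relative Igtp was 2.05-fold higher (1.04 ± 0.17). The peptide transporter Tap1 was at 2137 to 3573 against 1054 to 1691 (2.1-fold, 1.06 ± 0.16), and Irf8, a transcription factor of macrophages and of the interferon response, at 981 to 1944 against 377 to 671 (2.16-fold, 1.09 ± 0.18).

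Cd274, which encodes PD-L1, the ligand that restrains T cells, gave 725, 531, 699, 507 and 1344 after SP30 and 116, 248, 88.6, 189.6 and 105 after SP70, with control mice at 37.01 to 188. The groups did not overlap, and the SP70 group shared the control range (at least 3.87-fold, 2.26 ± 0.36, adjusted p = 7.08e-05). Nlrc5, the regulator of class I presentation genes, was above control after SP30 (0.53) and below it after SP70 (-0.51), a difference of 1.04 ± 0.17. Members such as the GTPase Gbp2 (0.47 ± 0.22, adjusted p = 0.25), the chemokine Cxcl9 (0.22 ± 0.22, adjusted p = 0.642) and the class II chain H2-Aa (0.53 ± 0.18, adjusted p = 0.0864) were not called. H2-Aa was called without SP70 mouse 2 (adjusted p = 0.0471). Gbp2 rose from 165 to 292 in control mice to 10899 to 15464 after SP30 and 6405 to 11126 after SP70, with overlap.

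Of 29 genes of the type I interferon response, 9 were higher after SP30 and 0 after SP70, beside 3.69% and 2.04% of all genes. The median of the 29 was 0.56. Parp14, an ADP-ribosyl transferase, was at 4789, 5151, 4694, 4812 and 4400.4 after SP30 and 2503, 1949, 1619, 2312 and 2538 after SP70 (2.21-fold, 1.14 ± 0.11, adjusted p = 1.78e-08). The mice given SP30 lay close together and above all mice of the SP70 and control groups, while the SP70 group overlapped the control range of 1298 to 1840.4. After SP70 at 10 mg/kg, outside the comparison, the mean ± SD of Parp14 was 4319 ± 348. The receptor transporter Rtp4 was 2.4-fold higher (1.26 ± 0.16), the ISG15 protease Usp18 2.34-fold (1.22 ± 0.23) and the RNA sensor Ddx58 1.84-fold (0.87 ± 0.16). Ifit1, an RNA-binding protein of the same response, was not called (0.44 ± 0.21, adjusted p = 0.263).

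Short sequence motifs were searched for in the promoters of these genes, because macrophage and interferon genes were both among those called higher after SP30. Whether they share a regulator was not tested. RefSeq promoters of build GRCm38.p6 were at hand for 10223 of the 12678 genes, and the 250 bases before the transcription start were used, the first listed start where a gene has several. Both strands were read, N is any base, and matches of different motifs may overlap. The interferon-stimulated response element, searched as GAAA, any 2 bases and GAAA again, was found in 7.31% of 383 promoters of genes higher after SP30, in 3.33% of 210 of genes higher after SP70 and in 2.64% of all. The GAS element TTCNNNGAA of STAT factors was in 8.88%, 3.33% and 6.05% of them, and GAGGAAGT, a form of the binding motif of the macrophage factor PU.1, in 3.66%, 1.43% and 2.39%. The hypoxia core ACGTG was in 13.8%, 24.8% and 21.4%. The NF-kB form, GGG followed by any 2 bases and TTTCC, was in 2.09%, 1.43% and 1.36%, and the AP-1 site TGANTCA in 6.01%, 4.29% and 4.75%. A match is a description of letters and shows no binding.

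Only some of the genes described here hold these elements. Aif1 has an interferon element from 157 bases before the start. No match of any motif searched was found for Cd5l, Clec4f, Vsig4, C1qb, Lyz2, Tap1, Cd274 or Ddx58. The promoters of 5 genes higher after SP30, chosen because they hold a match, are shown as examples. Each is written 5′ to 3′ on the strand of the gene and ends at the base before the start, with matches in capitals. The C1qc promoter (chr4:136892915-136893164, minus strand) has the PU.1 form on the reverse strand from 195 bases before the start. The Cybb promoter (chrX:9469325-9469574, minus strand) has 3 matches of the interferon element, from 168, 124 and 29 bases before the start, and an AP-1 match from 139. The Irgm2 promoter (chr11:58214727-58214976, plus strand) has a GAS match from 75 and an interferon element from 64 bases before the start, which do not overlap. The Ctss promoter (chr3:95526536-95526785, plus strand) has an interferon element from 21 bases before the start. The Mmp13 promoter (chr9:7272264-7272513, plus strand) has an interferon element from 146 and an AP-1 site from 35 bases before the start.
C1qc: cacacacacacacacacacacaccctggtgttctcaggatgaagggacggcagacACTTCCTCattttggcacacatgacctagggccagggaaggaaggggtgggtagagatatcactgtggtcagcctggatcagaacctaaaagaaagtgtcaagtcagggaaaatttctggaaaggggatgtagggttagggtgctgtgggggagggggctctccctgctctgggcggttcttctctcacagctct
Cybb: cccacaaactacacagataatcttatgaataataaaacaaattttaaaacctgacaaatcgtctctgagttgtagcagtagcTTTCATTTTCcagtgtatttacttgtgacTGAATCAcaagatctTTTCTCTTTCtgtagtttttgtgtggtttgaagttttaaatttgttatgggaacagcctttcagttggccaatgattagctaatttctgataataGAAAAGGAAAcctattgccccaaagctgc
Irgm2: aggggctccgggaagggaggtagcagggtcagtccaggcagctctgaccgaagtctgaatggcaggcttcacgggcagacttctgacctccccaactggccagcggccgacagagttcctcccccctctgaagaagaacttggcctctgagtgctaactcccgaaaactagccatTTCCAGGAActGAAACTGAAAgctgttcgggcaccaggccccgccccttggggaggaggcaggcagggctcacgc
Ctss: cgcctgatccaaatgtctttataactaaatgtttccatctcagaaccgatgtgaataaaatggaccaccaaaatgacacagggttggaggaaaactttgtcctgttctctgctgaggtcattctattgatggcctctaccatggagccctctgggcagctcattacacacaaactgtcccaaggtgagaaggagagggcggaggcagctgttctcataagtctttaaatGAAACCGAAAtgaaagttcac
Mmp13: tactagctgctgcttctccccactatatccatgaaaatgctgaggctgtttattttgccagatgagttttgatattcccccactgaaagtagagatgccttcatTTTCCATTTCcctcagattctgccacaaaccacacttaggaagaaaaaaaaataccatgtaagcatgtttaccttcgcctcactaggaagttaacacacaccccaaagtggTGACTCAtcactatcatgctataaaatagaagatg

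Mmp13, a collagenase, and Mmp12, an elastase of macrophages, differed far more than other genes of the matrix. Mmp13 was at 598, 882, 702, 357 and 2235 after SP30 and 92.4, 27.8, 50.8, 6.31 and 38.7 after SP70, with control mice at 58.98 to 113. Every mouse given SP30 was above 165 and every other mouse of these groups below it (at least 4.75-fold, 4.05 ± 0.56, adjusted p = 1e-05). Mmp12 was at 174 to 562 against 9.77 to 228 (2.19 ± 0.47), with overlap, and its call ended in the fit of the 10 arrays alone (adjusted p = 0.0537). Adam17, the protease that sheds TNF, was 1.59-fold higher after SP30 (0.66 ± 0.12). These were the 3 called of 31 matrix genes (9.68%, beside 5.73% of all genes), whose median was -0.041.

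Receptors and mediators of inflammation differed in part. Of 28 danger and lectin receptors, 8 were higher after SP30 and 0 after SP70 (median 0.38), beside 3.69% and 2.04% of all genes. Among the 8, Fpr2 is also in the neutrophil list and Clec7a in the scavenger receptor list. The lectin Clec4n, which recognises mannans, was at 1612, 1762, 1836, 2437 and 2374 against 702, 930, 355, 743 and 788 (2.95-fold, 1.54 ± 0.22, adjusted p = 1.43e-05), and no mouse overlapped between the groups. Myd88, the adaptor of most Toll-like receptors, was 1.49-fold higher (0.58 ± 0.10). Without SP70 mouse 3, 5 of the 28 were called. Gpr84, a fatty acid receptor of activated macrophages outside these lists, was at 184 to 536 against 7.84 to 113 (at least 1.79-fold, 2.37 ± 0.55), and its control mice at 19.8 to 105.

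Of 26 genes of the NF-kB response, 9 were higher after SP30 and 0 after SP70, beside 3.69% and 2.04% of all genes. The median of the 26 was 0.42. Acod1, which makes itaconate in activated macrophages, was at 1759, 2131, 1885, 1459.6 and 2341 after SP30 and 531, 737, 324, 669 and 641 after SP70, against 8.50 to 34.6 in control mice (3.38-fold, 1.74 ± 0.23, adjusted p = 6.04e-06). Both groups lay far above control, and the SP30 group lay above the SP70 group without overlap. Tlr2, a receptor for bacterial lipoproteins, was 2.27-fold higher (1.18 ± 0.20) and the NF-kB inhibitor Nfkbie 2.29-fold (1.19 ± 0.15). Tnfaip3, a feedback inhibitor of NF-kB, did not pass the test (-0.084 ± 0.29, adjusted p = 0.919), and the adhesion molecule Icam1 was called only when SP70 mouse 4 was left out (0.52 ± 0.20 with all mice and adjusted p = 0.116, 0.64 and 0.0469 without it).

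Among 31 cytokines and their receptors, 12.9% were called, beside 5.73% of all genes. Ebi3, Il1rn and Il1b were higher after SP30 and Il33 was higher after SP70. Il1b, the proinflammatory interleukin 1, was at 3118, 4142, 4271, 3264 and 4704 against 1828, 1512, 1168, 2163 and 1937 (2.29-fold, 1.19 ± 0.18, adjusted p = 3.06e-05), without overlap. Il1rn, which blocks its receptor, was at 9149.8 to 16351 against 4276 to 6800 (2.42-fold, 1.27 ± 0.33), without overlap, and just missed the threshold without SP30 mouse 4 (adjusted p = 0.0519). Ebi3, a subunit of interleukins 27 and 35, was at least 1.77-fold higher (2.09 ± 0.42). Il33, an alarm signal of damaged endothelium and stellate cells, was at 686, 897, 605, 357 and 771 against 1679.8, 935, 935, 1251 and 1328, a difference of -0.90 ± 0.28, adjusted p = 0.0464. Leaving out any 1 of 7 mice ended the call of Il33, with adjusted p-values up to 0.174 without SP30 mouse 4.

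Most chemokine genes were not called between the groups. Of 24, 4 were higher after SP30 and 1 after SP70 (median 0.32), beside 3.69% and 2.04% of all genes. Ccl3, which draws monocytes and other leukocytes, was at 1385, 1848, 2049.8, 1399.6 and 2139 against 618, 976, 406, 616 and 575 (2.83-fold, 1.48 ± 0.25, adjusted p = 0.000208) and Ccl4 was 1.86-fold higher (0.88 ± 0.17). Cxcl12, which retains leukocytes and stem cells and is made by stroma and endothelium, was at 3200, 3037, 2981, 3204 and 4115 against 5923, 4449, 4994, 4765 and 5108, 1.53-fold higher after SP70 (-0.61 ± 0.12, adjusted p = 0.00138). Both groups were below the control range of 6998 to 12290.5 for Cxcl12.

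Several inflammatory genes far above control in both groups were not called between them. Cxcl1, a neutrophil chemokine, was at 37499.5 to 64852 after SP30 and 50842 to 67505 after SP70, with control mice at 632 to 2049.8 (-0.15 ± 0.25, adjusted p = 0.806). Its relative Cxcl2 was at 12312 to 45437 and 17827 to 48001 (0.081 ± 0.36, adjusted p = 0.941), and the monocyte chemokine Ccl2 at 6836 to 9416 and 2841 to 8592 (0.34 ± 0.34, adjusted p = 0.646). The acute phase genes Saa3 (0.035 ± 0.12, adjusted p = 0.92) and Lcn2 (0.12 ± 0.22, adjusted p = 0.829) were not called either. Of 29 acute phase genes 2 were called (6.9%, near the 5.73% of all genes), Il1rn and Cfb, with a list median of 0.12.

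**Figure D3:**
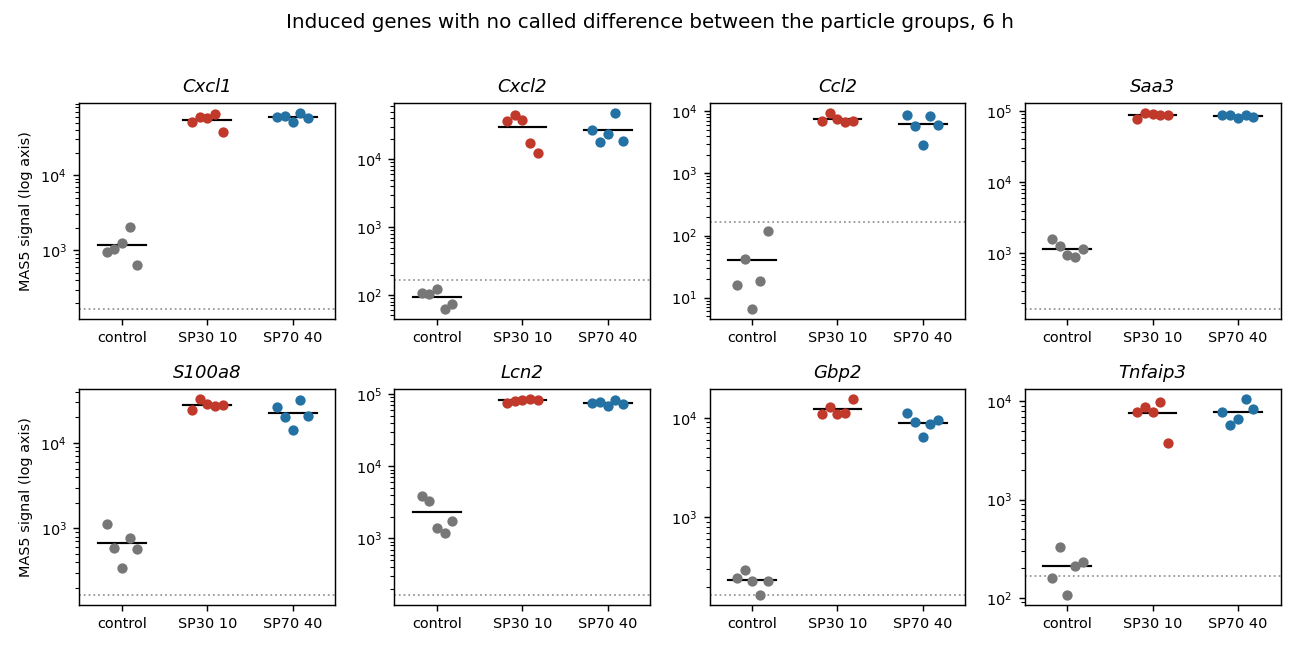
Signals (log axis, a separate scale in each panel) of 8 induced genes in each control mouse (grey), each mouse given SP30 at 10 mg/kg (red) and each given SP70 at 40 mg/kg (blue); the bar is the group mean and the dotted line the filter of 165. In every panel the particle groups overlap and every treated mouse lies above every control mouse.

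Genes of cell death and of stress were compared next. Of 27 cell death genes, 6 were higher after SP30 and 1, the caspase inhibitor Xiap, higher after SP70 (median 0.41). Of all genes, 3.69% and 2.04% were. Il1b, among the 6, is also in the cytokine list. Bid, which links death receptors to mitochondria, was at 3615 to 4009.9 against 1746 to 2494 (1.82-fold, 0.86 ± 0.12, adjusted p = 7.26e-06), without overlap and above control in both groups (411 to 708). The ubiquitin ligase Birc2 was 1.68-fold higher (0.74 ± 0.16). Of 29 NRF2 targets 4 were higher after SP30, from 0.39 for thioredoxin reductase 1 (Txnrd1) to 0.61 for the partner factor Mafg, and 2 were called with probe sets averaged. Of 27 heat shock proteins 3 were higher, Hspa4l (0.66 ± 0.15), Ahsa1 (0.41 ± 0.11) and Hspb8 (0.38 ± 0.11), and 1 was called without SP30 mouse 2, SP70 mouse 2 or SP70 mouse 3, or with probe sets averaged. Of 41 genes of the unfolded protein response 1 was called, the sensor Ern1 (0.61 ± 0.12), which was not called with its probe sets averaged (0.31, adjusted p = 0.309). Of 45 immediate early genes 3 were called: Egr2 (0.81 ± 0.21) and Per1 (0.57 ± 0.17) higher after SP30 and Klf10 (-0.81 ± 0.23) higher after SP70. Without SP70 mouse 3, none of these 3 was called (adjusted p = 0.0931, 0.0705 and 0.0818). The shares called were 13.79% of NRF2 targets, 11.11% of heat shock proteins and 2.44% of unfolded protein response genes. Immediate early genes, at 6.67%, were near the 5.73% called of all genes.

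**Figure D4:**
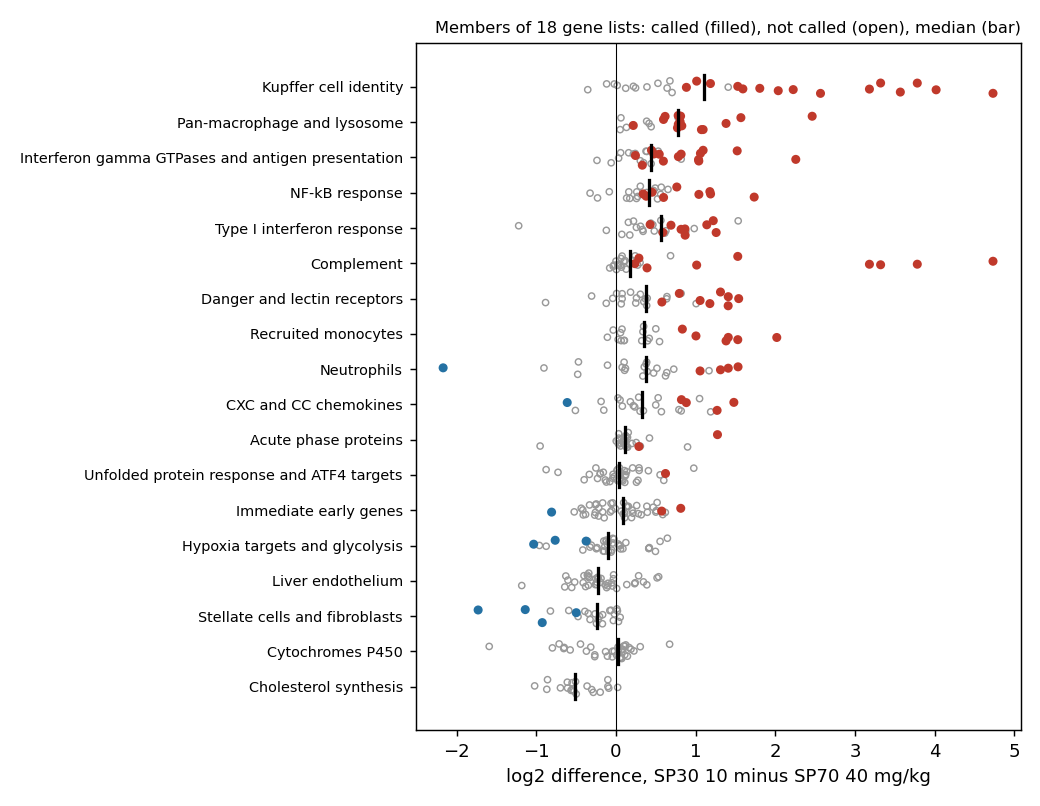
Log2 difference between SP30 at 10 mg/kg and SP70 at 40 mg/kg (horizontal axis) of each measured member of 18 gene lists; filled points are called genes (red higher after SP30, blue higher after SP70), open points are not called and bars are list medians. Medians run from 1.10 for Kupffer cell identity to -0.52 for cholesterol synthesis, and the lists from acute phase proteins downward hold few filled points.

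In 10 called genes the groups lay on opposite sides of control, each side being called. All 10 were above control after SP30 and below it after SP70. Besides Cybb, Spic and Nlrc5 they were Cd86, a costimulatory ligand for T cells (1.18 and -1.93), Ms4a7 (0.76 and -1.05), Lst1 (0.48 and -0.64), Themis2 (0.56 and -0.56), Ifi202b (0.59 and -0.71), Ern1 (0.30 and -0.31), whose difference was not called with its probe sets averaged (0.31, adjusted p = 0.309), and Prr16 (0.25 and -0.27). Cd86 was at 320.5, 368, 256, 281 and 545 after SP30 and 11.6, 33.3, 26.8, 133 and 5.59 after SP70, with control mice at 87.9 to 204. No mouse given SP70 reached 165 for Cd86 (at least 2.07-fold, 3.12 ± 0.45, adjusted p = 1.5e-05). Most control mice were also below it, so the value of -1.93 against control rests on low signals. Of the 468 genes higher after SP30, 150 were above control in both groups, 151 only passed the test above control after SP30, 78 only passed it below control after SP70, and 41 were below control in both.

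Adgre4 and Tnfrsf14 were also among the 12 widest differences in the SP30 direction, and all mice given SP70 were below 165 for both. Adgre4, a relative of F4/80 on macrophages, was at 197 to 621 against 27.4 to 156 (at least 2.46-fold, 2.57 ± 0.35, adjusted p = 7.86e-06), with control mice at 654 to 1012. Tnfrsf14, a receptor of the TNF family that regulates lymphocytes, was at 208 to 373 against 12.9 to 139.9 (at least 1.62-fold, 2.41 ± 0.46, adjusted p = 0.000741). Neither overlapped between the groups. Plek, a protein kinase C substrate of leukocytes, was at 2199 to 2583 against 519 to 1038 (2.87-fold), and Ms4a6d, a membrane protein of macrophages, at 1548 to 2248 against 338 to 849.7 (3.78-fold, 1.89 ± 0.17). Plek and Ms4a6d are not among the 12 and were chosen after their values were seen.

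Genes higher after SP70 were fewer and mostly differed by less. G0s2, an inhibitor of the fat-releasing lipase ATGL, was at 2242, 713, 1854, 468 and 1537 after SP30 and 4844, 7727, 11906, 3132 and 2961 after SP70, with control mice at 4622 to 15645. The groups did not overlap, and the SP70 group lay within or near the control range while the SP30 group lay below it (4.54-fold, -2.17 ± 0.49, adjusted p = 0.00475). Of the 258 genes, 99 passed the test below control after SP30 alone, 91 were below control in both groups, 39 passed it above control after SP70 alone, and 7 were above control in both.

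Of the other 11 genes with the lowest differences, most were faint in the SP30 group. The zinc finger gene Zfp667 was at 60.98, 90.7, 78.7, 92.5 and 123 against 270.2, 204, 202, 306 and 223 (at least 1.44-fold higher after SP70, -1.33 ± 0.22, adjusted p = 0.000118), and the control mice at 122 to 302 overlapped both groups. Ung, the uracil DNA glycosylase of base excision repair, was at 1203, 617, 799, 432 and 954 against 1525, 1739, 1637, 1747 and 1277 (2.09-fold, -1.05 ± 0.21, adjusted p = 0.0016), both above the control range except for 1 mouse given SP30. Cda, cytidine deaminase, was at 424 to 809.9 against 857 to 1850.4 (2.15-fold, -1.09 ± 0.22). The remaining ones were 4931408D14Rik (-1.28 ± 0.28), Ccdc141 (-1.19 ± 0.24), the homeobox gene Lhx6 (-1.15 ± 0.25), Iqce (-1.11 ± 0.29), Ttc30a1 (-1.02 ± 0.20), Ppp1r42 (at least 1.79-fold), the centrin Cetn1 (-1.54 ± 0.47) and the sialidase Neu3 (-1.32 ± 0.39). Each of these had mice given SP30 below 165. The call of Cetn1 ended on leaving out any 1 of 7 mice and that of Neu3 any 1 of 8, and that of Iqce without SP30 mouse 3 (adjusted p = 0.0549) or mouse 4 (0.0859).

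Genes of stellate cells, the vitamin A stores and pericytes of the liver, were called in the SP70 direction only. Of 24, 4 were higher after SP70 and 0 after SP30, beside 2.04% and 3.69% of all genes. The median of the 24 was -0.23. Their summed signal ran from 34424 to 55571 after SP30, 34165 to 63122 after SP70 and 58020 to 78411 in control mice, so the groups overlapped. Lrat, the enzyme that stores vitamin A and defines these cells, was at 128, 221, 317, 200.2 and 296 against 449.5, 316, 487, 523 and 417 (-0.93 ± 0.26, adjusted p = 0.0284), and the control mice at 889 to 1819 lay above both. The smooth muscle gene Tagln was at 457, 578, 504, 245 and 262 against 1453, 578, 513, 1008 and 1115, with overlap (-1.14 ± 0.27, adjusted p = 0.00641) and a control range of 231 to 540.2. Pdgfrb, the receptor for the growth factor of these cells, was 1.42-fold higher after SP70 (-0.50 ± 0.14), and Ntn4, a netrin of basement membranes, differed by -1.73 ± 0.25 with all 10 mice below 165. Without SP30 mouse 1 the Lrat (adjusted p = 0.0903) and Pdgfrb (0.0736) calls ended, and without SP70 mouse 1 they ended too (0.0567 and 0.108), which left 2 of the 4. In the fit of the 10 arrays alone Ntn4 (0.133), Tagln (0.0526) and Pdgfrb (0.087) were not called, which left 1. The call of Lrat ended on leaving out any 1 of 6 mice.

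Of 37 genes of the hypoxia response, 3 were called (8.11%, beside 5.73% of all genes), all higher after SP70 (median -0.094). In that direction 1 was called without SP30 mouse 4 or SP70 mouse 3, with probe sets averaged or in the fit of the 10 arrays alone. Vegfa, the growth factor of blood vessels, was at 5142, 5487, 5143, 3175 and 3029 after SP30 and 7829, 6219.7, 8832, 8044 and 5706 after SP70, 1.7-fold higher (-0.76 ± 0.16, adjusted p = 0.00293). No mouse overlapped, and the control mice at 2999.9 to 4357 lay within the range of the SP30 group or just below it. Ndrg1 was at 3377, 3633, 2567, 727 and 1311 against 4076, 2498, 4874, 5428 and 4084 (-1.03 ± 0.27, adjusted p = 0.0178), with overlap, and was not called without SP30 mouse 4 (adjusted p = 0.0936), SP30 mouse 5 (0.0641) or SP70 mouse 3 (0.0578). Mxi1, an antagonist of MYC, differed by -0.37 ± 0.10 and lost its call without SP30 mouse 4 (0.0715) or SP70 mouse 3 (0.0905).

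Genes of hepatocyte metabolism gave scattered calls. Pdk4, which spares glucose in fasting, was at 136 to 923 against 765 to 1497 (-1.43 ± 0.37, adjusted p = 0.0163), and lost its call without SP30 mouse 4 (adjusted p = 0.0859) or SP70 mouse 2 (0.0544). G6pc, the last enzyme of glucose release, was higher after SP30, at 10711, 4704, 5864, 3732 and 9938 against 2539, 3973, 1995, 3311 and 3065 (2.22-fold, 1.15 ± 0.25, adjusted p = 0.00312), with both groups below the control range of 10177 to 22305 except for 1 mouse. Hjv, the hemojuvelin co-receptor that raises hepcidin, was at 751, 803, 786, 880 and 682 against 1245, 1750.4, 1624, 1219 and 1041, 1.74-fold higher after SP70 (-0.79 ± 0.15, adjusted p = 0.000646), and far below the control range of 4728 to 6591 in both. Nr1i3, the nuclear receptor CAR, was 1.59-fold higher after SP70 (-0.67 ± 0.17), and not called without SP70 mouse 3 (0.0697) or SP30 mouse 3 (0.0554). Of 37 genes of the urea cycle and amino acid breakdown, 4 were higher after SP30, by up to 0.59 for proline dehydrogenase (Prodh), and 1 was called without SP70 mouse 3 and 2 without any 1 of 5 other mice. Of 25 genes of fatty acid oxidation 3 were higher after SP70 (Pdk4, Ppara and Acot2), and 0 without SP30 mouse 4 or SP70 mouse 2. The shares called with all mice were 10.81% of the urea cycle list and 12% of the fatty acid oxidation list, beside 5.73% of all genes.

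**Figure D5:**
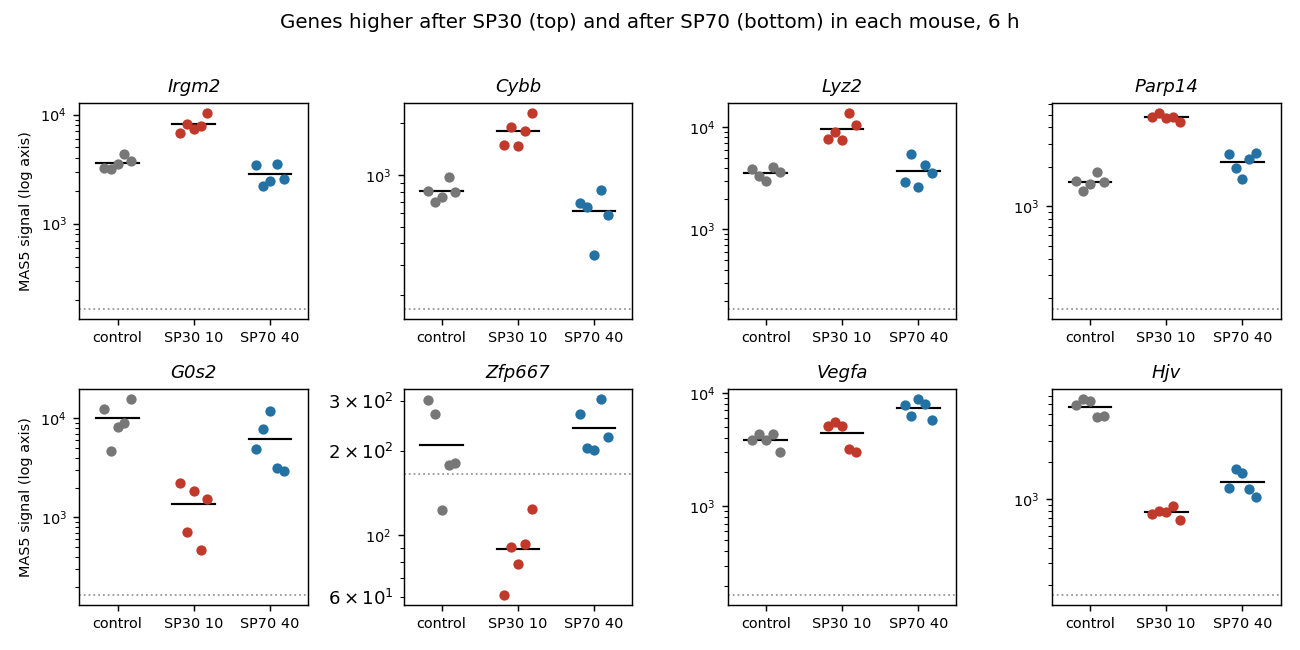
Signals (log axis, a separate scale in each panel) of 4 genes called higher after SP30 (top) and 4 called higher after SP70 (bottom) in each control mouse (grey), each mouse given SP30 at 10 mg/kg (red) and each given SP70 at 40 mg/kg (blue); the bar is the group mean and the dotted line the filter of 165. The particle groups do not overlap in any panel, and Hjv lies below control in both groups.

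Several groups of liver genes had no called member. Among them were 39 genes of liver endothelium (median -0.22), 35 cytochromes P450 (0.027), 33 of coagulation (0.076), 20 of cholesterol synthesis (-0.52) and 25 of the cell cycle (-0.31), beside the 5.73% called of all genes by limma. Other lists without a call, such as proteasome subunits and ribosomal proteins, are not described. At an unadjusted limma p under 0.05, 10 of the 39, 4 of the 35, 6 of the 33, 6 of the 20 and 4 of the 25 passed. Of all 12678 genes 2362 passed. The endothelial and cholesterol synthesis shares were above that of all genes, and those of the P450, coagulation and cell cycle lists were below it. Against control, 22 of the 39 endothelial genes were lower after SP30 and 19 after SP70, beside 31.2% and 28.8% of all genes, with Kdr, the main VEGF receptor, at 209 to 526 after SP30 and 169 to 546 after SP70 against 1738 to 2234 in control mice (-0.03 ± 0.21, adjusted p = 0.963). Clec4g, a sinusoidal lectin, was not called between the groups either (0.23 ± 0.26, adjusted p = 0.686). Cholesterol synthesis genes spread widely between mice: Sqle, the squalene epoxidase, was at 1004 to 2716 against 1725 to 4233 (-1.02 ± 0.49, adjusted p = 0.253) and Hmgcs1 at 8794 to 14144 against 9076 to 32350.1 (-0.86 ± 0.35, adjusted p = 0.155). Their adjusted p-values, over the threshold, do not show that the groups were alike.

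The levels of 5 genes, chosen after their values were seen, were set beside those of other groups, as means ± SD of 5 mice. Csf1r was at 10556 ± 1199.8 in control mice, 10115 ± 1124 after SP300 at 10 mg/kg, 4952 ± 722 after SP70 at 10 mg/kg, 4069 ± 1016 after SP30 at 10 mg/kg, 1740 ± 201 after SP70 at 20 mg/kg, 1320.4 ± 217 after SP70 at 40 mg/kg and 1126 ± 93.04 after SP300 at 200 mg/kg. The SP30 level and that after SP70 at 10 mg/kg lay within their spread of each other, and the mean after SP70 at 40 mg/kg differed from that after SP300 at 200 mg/kg by less than the SD of the SP70 group. Irgm2 had the same neighbours at the top, with 8135 ± 1338 for SP30 and 8396 ± 1239 for SP70 at the lowest dose, and 2846 ± 605 after SP70 at 40 mg/kg. Vegfa was highest after SP70 at 40 mg/kg (7326 ± 1312), followed by SP30 (4395 ± 1190.2), and was at 2879 ± 875 and 2209.8 ± 165 after SP70 at 10 and 20 mg/kg. The order was another for Il1b and Bid, in which SP30 stood above SP70 at 10, 20 and 40 mg/kg by more than the spread. Il1b was at 3899.9 ± 682 after SP30. After SP70 it was at 1529 ± 163, 1238 ± 214 and 1722 ± 388 at 10, 20 and 40 mg/kg. Bid was at 3842 ± 171, 1866 ± 159.7, 2082 ± 69.5 and 2120.1 ± 275 in the same groups.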

How the data were processed

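Liver RNA was measured on 1 array per mouse in 35 mice, and the comparison is between 5 and 5 of them, with the 5 control mice beside it; the other groups enter the estimate of the spread and 1 paragraph of levels. The deposited values are MAS5 intensities per probe set, on a linear scale, with MAS5 named in the submitters' processing notes; their scaling target was not stated there, and no scaling was added. The number of arrays limits the precision. Probe sets above 165 (the median) on at least 5 arrays were kept. Those of 1 gene by the platform annotation were reduced to the one with the highest mean per gene. Then log2(signal + 12.5) was taken, 12.5 being the 10th percentile, which shrinks the log2 differences of faint genes. Folds were computed without it, from signals raised to at least 165, so folds of faint genes are understated. All 35 arrays were fitted with limma 3.58.1 in R 4.3.3 (group means, trended empirical Bayes, two-sided), with adjustment over 12678 genes at 0.05. The script was tested on simulated data. Replicate numbers did not pair mice and were not used as a block.

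The 48 gene lists (1319 genes, 1132 tested, 74 below the filter, 113 without a usable probe set of 1 gene) and the comparison were chosen with earlier results of these data known, so neither they nor their counts are independent support. Some genes are in several lists and count in each, so the counts of different lists are not separate. Named genes are the 12 highest and 12 lowest differences among called genes without overlap whose higher group lay above the filter in all mice, and up to 4 members with the smallest adjusted p of each list with 3 or more called; other list members are named where their list is described. Alternatives were other pseudocounts, filters, scalings, probe set rules and fits, and leaving out each mouse.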

Additional observations from a re-analysis of the deposited data

Results flagged for a closer look

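In 294 groups of 5 mice checked (147 named genes in each particle group), 16 had a mouse whose gap to its nearest neighbour exceeded 0.71 of the range of the group, on the log2 scale; chance alone flags about 1 in 20 groups. SP30 mouse 5 stood highest for C1qa (0.777), Cxcl12 (0.777), Irf8 (0.820) and Cfp (0.762) and lowest for Tnfaip3 (0.755). SP70 mouse 3 stood lowest for Msr1 (0.844), Mpeg1 (0.765), Pmaip1 (0.718) and Sgk1 (0.739) and highest for Neu3 (0.778). SP30 mouse 1 stood lowest for Ahsa1 (0.738) and Pmaip1 (0.806) and highest for Sqle (0.763) and Hmgcs1 (0.826). SP30 mouse 4 stood lowest for Klf10 (0.752) and Folr2 (0.758).

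In 10 genes the particle groups were called on opposite sides of control and the difference between them was called by limma: log2 differences of 3.12 for Cd86, 1.57 for Cybb, 1.81 for Spic, 1.81 for Ms4a7, 1.13 for Lst1, 1.12 for Themis2, 1.04 for Nlrc5, 0.61 for Ern1, 1.30 for Ifi202b and 0.52 for Prr16.

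Of 4204 kept probe sets with no gene or several genes in the annotation, 78 (1.86%) were called between the particle groups, 60 higher after SP30 and 18 higher after SP70.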

How the results depend on the processing

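The count of 726 genes fell to 418 in a fit of only the 10 arrays compared, with 303 higher after SP30 and 115 higher after SP70, and 373 of the 418 were among the 726. With each array centred on its median, 140 genes were higher after SP70. Leaving out 1 mouse at a time gave 429 to 856 genes, 283 to 589 higher after SP30 and 146 to 273 higher after SP70. Of 20 alternatives, the other settings kept the total within 1.5 times, from 571 when a gene's kept probe sets were averaged to 800 with quantile normalization. With the replicate number as a block, 709 genes were called, 674 of them among the 726; deviations of same-numbered mice correlated at -0.0025 on average (-0.087 to 0.061, 5 pairs), and 2 of 5 mice given SP30 correlated best with their own number. Of 123 genes tabulated and called, 75 were called in the same direction under all 20, and 7 more under the 19 in which they were tested, being below the stricter filter. The other 41 lost the call under at least 1, 28 of them on leaving out a mouse and 4 under another pseudocount; none reversed. The cause of the changed counts was not tested.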

Other observations

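The median of 29 complement genes was 0.17, and 9 were higher after SP30 and 0 higher after SP70, beside 3.69% and 2.04% of all genes. Of the 9, 6 are also in the list of Kupffer cell genes (C1qa, C1qb, C1qc, Cfp, Fcna and Vsig4). The other 3, which hepatocytes make, differed by less: C2 by 0.39, Cfb by 0.29 and Mbl2 by 0.24.

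Of 21 p53 targets, the death gene Pmaip1 (1.38) and the autophagy regulator Trp53inp1 (0.88) were higher after SP30 and the stress protein Sesn1 (-0.64) was higher after SP70, with a list median of -0.07. None of the 3 was called without SP30 mouse 4 (adjusted p = 0.101, 0.0531 and 0.0615). Pmaip1 lost its call under 10 of the 20 alternatives, and Trp53inp1 stood at 0.45 (adjusted p = 0.382) with its probe sets averaged. Of 28 genes of the glucocorticoid and fasting response, 4 were higher after SP30 and 1, Pdk4, higher after SP70 (median 0.005); 2 were called higher after SP30 without SP30 mouse 5, SP70 mouse 2 or SP70 mouse 3. Of 21 genes of metal handling, Smad7, an inhibitor of the BMP and TGF-beta pathways, was higher after SP30 (0.74) and Hjv higher after SP70 (-0.79). No gene of the list was called higher after SP30 without any 1 of 5 mice. The shares called were 14.29% of p53 targets, 17.86% of the glucocorticoid list and 9.52% of metal handling genes, beside 5.73% of all genes.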
